A study of Homo sapiens with 4 samples.

Results

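The cytosolic ribosomal protein genes encode the protein part of the ribosome that translates nuclear messenger RNAs. Genes were taken by symbol: those that start with RPL or RPS followed by a digit, with RPLP0, RPLP1, RPLP2 and RPSA, and without S6 kinases, copies whose names end in L, and pseudogenes. Antisense and divergent transcripts and the binding protein RPS19BP1 were left out as well. Of 79 coding genes with such names in RefSeq, 53 had at least 1 probe set that the array's annotation gives to a single gene, of 19775 genes with such a probe set in all. Another 15 were annotated only on probe sets that list several symbols, among them RPL5, RPL10, RPL13A and RPL23, and 11, among them RPLP0 and RPSA, had no listed probe set. These 26 genes were not analysed by name here.

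The arrays were Affymetrix, and the cells were BT474, a long-used line from a human breast tumour in which ERBB2 is amplified. The vehicle group was given vehicle and the AICAR group 0.5 mM AICAR, each for 24 h in DMEM, with 2 arrays per group. AICAR is a nucleoside that cells phosphorylate to an AMP mimic, which activates the energy-sensing kinase AMPK. The study asked which transcripts differ after this treatment. The 4 array medians lay between 6.37 and 6.40 (log2), the 8 luminal epithelial markers were all detected, with means of 10.55 to 14.15, and of 13 leukocyte, endothelial and fibroblast markers 6 lay above the bound for dim genes. Of those 6, COL1A1 was the brightest, at 9.70. Only 4 of the 5 leukocyte markers had a probe set given to a single gene. The number of arrays limits the precision. The labels do not state that replicates came from separate cultures, so a p-value reflects the spread among these arrays, which may be technical. For each test, limma draws a gene's variance towards one shared by all genes (prior degrees of freedom 4.42, residual 2).

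A ribosome has a small subunit, which reads the messenger, and a large subunit, which joins amino acids and carries the stalk that recruits translation factors. The proteins are made in near-equal numbers, and surplus copies are degraded. Their messengers belong to the class called TOP, for terminal oligopyrimidine: transcription starts at a C that is followed by a run of C and T. The translation of this class is known to be held back, through the RNA-binding protein LARP1, when the growth kinase complex mTORC1 is inhibited, and AMPK is a known inhibitor of mTORC1. Arrays of total RNA measure the amount of messenger, not its translation.

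The start sites show what the members have in common beyond their names. Promoter windows from RefSeq (GRCh38.p14) were found for 47 of the 53 members. A TOP start was counted where a C within 3 bases of the annotated start was followed by at least 4 bases that were each C or T. It was present in 41 of the 47 members (87.2%), against 18.6% of 11065 tested genes with a window and 13.0% of all 35116 windows. Over the tracts measured, counted once per annotated start and without the Y-linked copy, the length was 5 to 22 bases, with a median of 9. The windows below run from 20 bases before to 20 bases after the start, 5′ to 3′ on the gene's strand, with the tract in capitals. They were chosen as those of genes on which the results turn. Where a gene has several annotated starts, the one with a tract is printed.
RPS6 (chr9:19380217-19380256, minus strand): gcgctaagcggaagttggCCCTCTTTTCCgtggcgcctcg
RPS3 (chr11:75399498-75399537, plus strand): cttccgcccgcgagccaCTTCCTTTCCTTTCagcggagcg
RPS24 (chr10:78033843-78033882, plus strand): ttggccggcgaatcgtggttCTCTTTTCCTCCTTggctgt
RPL19 (chr17:39200303-39200342, plus strand): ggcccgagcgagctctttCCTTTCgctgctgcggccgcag
RPL11 (chr1:23691786-23691825, plus strand): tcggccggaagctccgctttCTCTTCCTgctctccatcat
RPL24 (chr3:101686699-101686738, minus strand): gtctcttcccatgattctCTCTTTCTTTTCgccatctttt
RPL31 (chr2:101002269-101002308, plus strand): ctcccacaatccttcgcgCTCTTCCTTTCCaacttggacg
RPL37A (chr2:216498824-216498863, plus strand): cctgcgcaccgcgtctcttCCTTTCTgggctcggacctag
RPLP1 (chr15:69452798-69452837, plus strand): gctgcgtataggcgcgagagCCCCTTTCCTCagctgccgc
EEF1A1, elongation factor, known as a TOP messenger and shown for comparison (chr6:73521013-73521052, minus strand): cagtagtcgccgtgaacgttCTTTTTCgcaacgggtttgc
In the windows of 300 bases around the start, searched on both strands, the ETS motif CCGGAA was found in 57.4% of the members and in 32.1% of tested genes. The SP1 box GGGCGG was found in 55.3% and 73.7%, the YY1 motif AAGATGG in 10.6% and 9.02%, the E-box CACGTG in 6.38% and 12.4%, and the TATA box TATAAA in 6.38% and 8.84%. These are matches of letters and were not tested as binding sites.

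Read by the brightest probe set of each gene, none of the 52 ribosomal protein messengers tested changed past the threshold after 24 h of AICAR. Some dimmer probe sets of the same genes did, as described further on. For each gene the probe set with the highest mean was used, and differences, AICAR minus vehicle, were fitted with limma over all 13842 genes above the bound for dim genes (log2 6.11). Of the 53 members 52 were tested. The exception was RPL36A, whose single probe set had a mean of 4.32. Of the 52, 0 rose and 0 fell at an adjusted p under 0.05, where 9.82% of all genes tested were called (4.63% higher, 5.19% lower). At an unadjusted p under 0.05 there were also 0, against 26.1% of all genes, and the smallest adjusted p among the members was 0.258. The shared variance raises the standard error of genes with little spread, as most members had, so these counts do not exclude small differences. With a trend and robust variances, 0 of 52 were called, against 17.8% of all genes, and 1, RPL8, had an unadjusted p under 0.05. The 52 differences were 28 positive and 24 negative, with a median of 0.0035 (log2), beside 0.0097 over all genes. Their median size without sign was 0.0218, beside 0.111 over all genes.

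Brightness bears on how these values can be read. Of the 52 members, 49 had means between 13.01 and 15.34, and the dimmest of those stood at the 98.1th percentile of gene means. The highest value of any probe set on the arrays was 15.34, and it belonged to RPL19. A difference in amount near the top of the scale can be compressed, and probe brightness depends on the probe as well as on the messenger, so levels of different genes are not set against each other as amounts. Among 213 other genes with a mean of log2 13 or more, a range that holds all 49 bright members, 5 were called (2.35%), 3 higher and 2 lower. Examples are the membrane-binding protein ANXA2, at 13.37 with vehicle and 13.69 with AICAR (log2 difference 0.31, limma adjusted p = 0.0396), and the importin KPNA2, at 13.23 and 12.84 (-0.38, 0.0233). The 213 genes had a median difference without sign of 0.0708, and the 49 members 0.0208. How far compression accounts for the small differences was not tested.

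**Figure D1:**
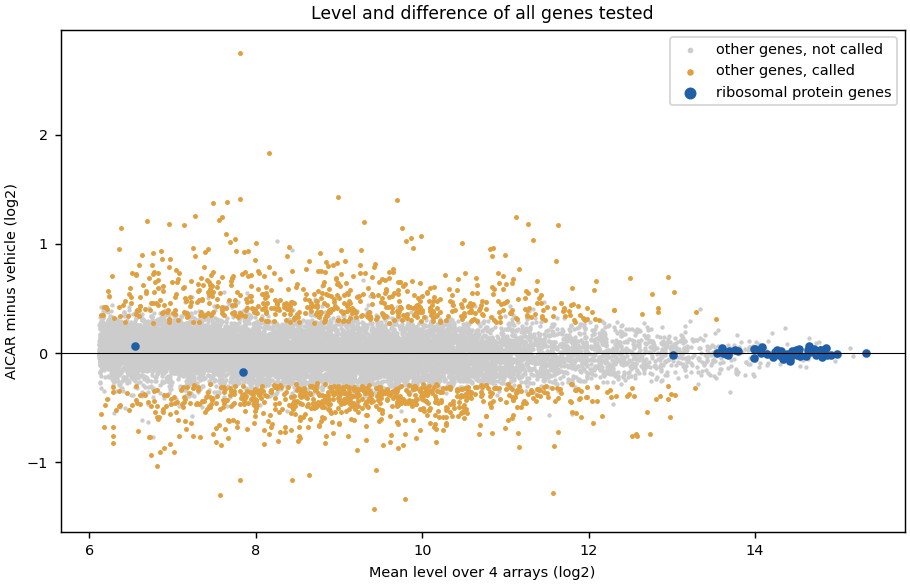
Each point is a gene, with its mean over 4 arrays (log2) on the horizontal and AICAR minus vehicle (log2) on the vertical axis. Ribosomal protein genes (blue, without the Y-linked copy) sit close to 0 at the bright end, except RPLP2 and RPL27A at means of 6.55 and 7.85. Other genes called at an adjusted p under 0.05 are orange, and 5 of them have a mean of 13 or more.

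For the 49 bright members the differences ran from -0.07 to 0.06 (log2). Their 95% confidence intervals, each for the brightest probe set of the gene, together spanned -0.23 to 0.24. The widest bound was thus a 1.18-fold change on the array's scale, for those probe sets only. With a trend in the variances and robust estimation of them, both changed together, the intervals spanned -0.14 to 0.15 and the widest bound was 1.11-fold. The median standard error of these genes was 0.0668 in the first fit and 0.0317 in the second. The median SD of a bright member was 0.0174 over the vehicle arrays and 0.0168 over the AICAR arrays (n = 2 each). The standard errors of the first fit are thus set largely by the variance shared over all genes, not by the members' own spread. The median gap between the 2 vehicle arrays was 0.0246 and between the 2 AICAR arrays 0.0238. The median size of the difference between the groups was 0.0208. A gap is between single arrays and a group difference between means of 2, so these sizes are not on the same scale. In 25 of 49 the difference between groups was larger than the gap between the vehicle arrays. RPL22, read here at 0.02, had further bright probe sets at -0.19, -0.14, -0.03 and 0.03. Those at 0.02, -0.03 and 0.03 have names ending in _x_at, which marks probe sets that may bind messengers of other genes. Those at -0.19 and -0.14 do not. The lowest RPL22 probe set, 221726_at, was at 12.51 and 12.44 with vehicle and 12.29 and 12.28 with AICAR. It was not called when probe sets were tested separately (limma adjusted p = 0.182), but its difference lies outside the range given for the 49.

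**Figure D2:**
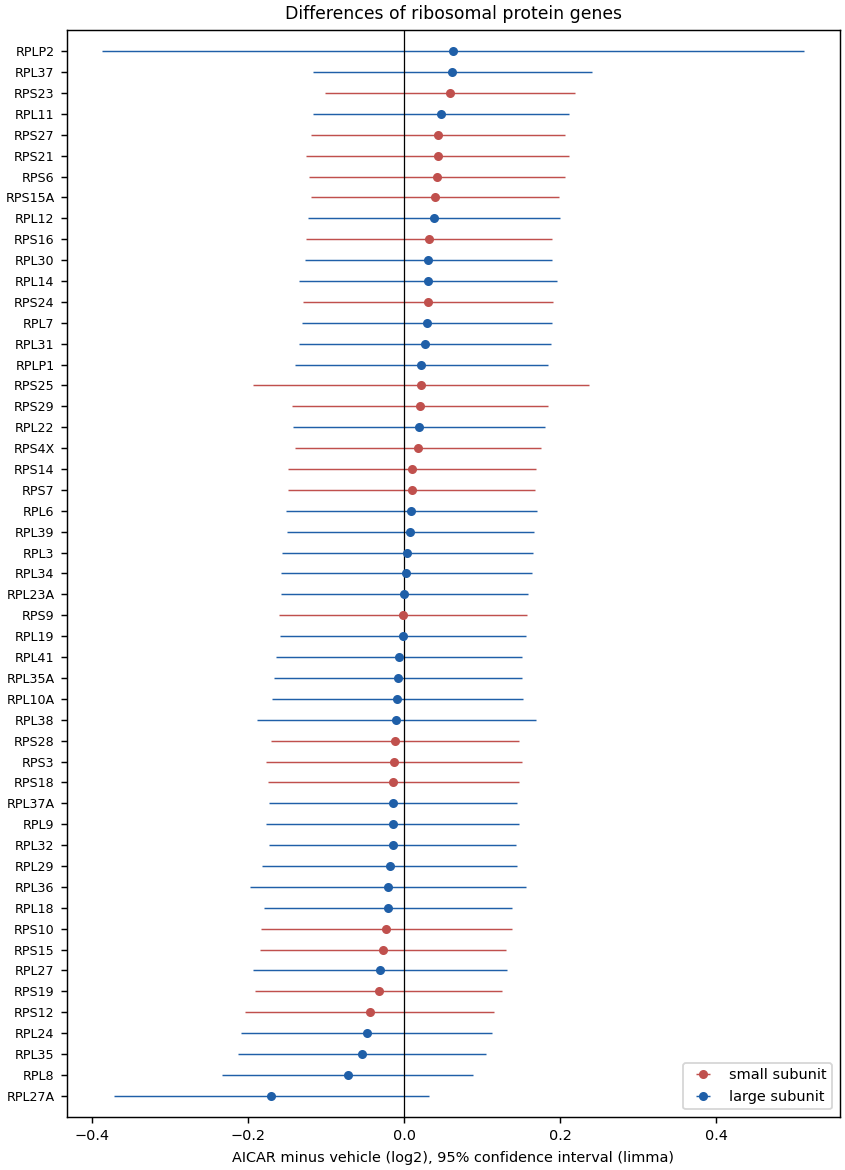
Points are AICAR minus vehicle (log2, horizontal axis) for 51 tested members, with 95% confidence intervals from limma, small subunit in red and large subunit in blue. Every interval drawn includes 0, and the differences of the bright members lie between -0.07 and 0.06. The widest interval belongs to RPLP2 and the lowest point to RPL27A.

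The small subunit was represented by 21 tested genes, with 13 positive and 8 negative differences and a median of 0.0177 (log2). RPS6, the protein that S6 kinases phosphorylate, was at 13.95 and 14.01 on the vehicle arrays and at 14.02 and 14.03 on the AICAR arrays. Both AICAR values lay above the vehicle values, by no more than the vehicle arrays differed from each other, and the difference was 0.04 (95% confidence interval -0.12 to 0.21, limma adjusted p = 0.741). RPS3, which lines the entry of the messenger channel and also acts in DNA repair, was at 14.73 and 14.75 with vehicle and 14.70 and 14.76 with AICAR. Its AICAR values lay on either side of the vehicle pair (difference -0.01, adjusted p = 0.923). RPS23, a protein of the decoding centre, had the highest difference of the bright small subunit genes at 0.06 (14.07 and 14.03 with vehicle, 14.11 and 14.11 with AICAR; adjusted p = 0.625). Below it came RPS27, RPS21 and RPS15A at 0.04 each.

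At the other end of the small subunit, RPS12 differed by -0.04, RPS19, a protein mutated in Diamond-Blackfan anaemia, by -0.03, RPS15 by -0.03 and RPS10 by -0.02. RPS18, among the 3 brightest members, was at 14.90 and 14.94 with vehicle and 14.91 and 14.90 with AICAR. Taken as a list, 9 tested proteins at the decoding site and along the messenger path had 5 positive and 4 negative differences, from -0.03 to 0.06, and 0 passed. RPS4Y1, the copy on the Y chromosome, is counted among the members and its level is not given.

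The large subunit was represented by 31 tested genes, with 15 positive and 16 negative differences and a median of -0.0018 (log2). RPL8, which touches the peptidyl transferase centre, had the lowest difference among the bright members. It was at 14.47 and 14.43 with vehicle and 14.37 and 14.39 with AICAR. All AICAR values lay below the vehicle values, and the difference of -0.07 did not pass (95% confidence interval -0.23 to 0.09, adjusted p = 0.541). With a trend and robust variances its limma interval was -0.14 to -0.0035, which excludes 0 before adjustment (adjusted p = 0.148). RPL35, at the exit of the peptide tunnel, was at 14.38 and 14.35 with vehicle and 14.31 and 14.30 with AICAR (difference -0.05, adjusted p = 0.651). RPL24, which joins the subunit late and reaches towards the small subunit, was at 14.02 and 13.99 with vehicle and 13.97 and 13.94 with AICAR (difference -0.05, adjusted p = 0.690). RPL27 and RPL18 followed at -0.03 and -0.02.

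The highest difference among bright large subunit genes was that of RPL37, at 14.59 and 14.65 with vehicle and 14.62 and 14.74 with AICAR. The groups overlapped, and the difference was 0.06 (adjusted p = 0.647). RPL11, which with RPL5 binds and inhibits the p53 ubiquitin ligase MDM2 when ribosome assembly fails, was at 13.54 and 13.61 with vehicle and 13.61 and 13.64 with AICAR (difference 0.05, 95% confidence interval -0.12 to 0.21, adjusted p = 0.704). Of 8 tested ribosomal proteins listed as binding MDM2, 7 had positive differences, all between -0.01 and 0.06, and 0 passed. RPL3, a protein of the peptidyl transferase region, differed by 0.0042 (adjusted p = 0.979). RPL36, the dimmest member of the bright group, was at 12.96 and 13.08 with vehicle and 13.01 and 13.00 with AICAR.

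RPL19 and RPL41 sat at the top of the scale. RPL19 read 15.34, 15.34, 15.33 and 15.34 on vehicle arrays 1 and 2 and AICAR arrays 1 and 2, a difference of -0.0018 (SE 0.0656). In RefSeq's gene order RPL19 lies on chromosome 17 with 10 coding genes between it and ERBB2, the gene amplified in these cells. Copy number was not measured. RPL41, which encodes one of the shortest human proteins, read 14.99 on both vehicle arrays and 14.98 on both AICAR arrays. The SD of RPL19 was 0.00049 over the vehicle arrays and 0.0030 over the AICAR arrays (n = 2 each). Its SE of 0.0656 therefore comes almost wholly from the variance shared over all genes. After quantile normalization, which gives all arrays the same distribution, the difference of RPL19 was 0. That method gives any probe set of equal rank on all arrays a difference of 0, so this value does not show an unchanged messenger. How far the authors' normalization narrows the spread of the brightest probe sets was not tested.

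The stalk, a pillar of RPLP0 with RPLP1 and RPLP2 dimers beside RPL12, recruits and activates the GTPase factors of translation. RPLP1 was at 14.63 and 14.65 with vehicle and 14.64 and 14.69 with AICAR, a difference of 0.02 (adjusted p = 0.872). RPL12 was at 14.69 and 14.68 with vehicle and 14.75 and 14.70 with AICAR. Its AICAR values lay above the vehicle values by 0.04 on average, without passing (adjusted p = 0.765). RPLP2 was read by a dim probe set, at 6.23 and 6.81 with vehicle and 6.47 and 6.70 with AICAR. The vehicle arrays enclosed the AICAR values, and its interval of -0.39 to 0.51 allows changes that those of the bright members do not. RPL27A was read dimly as well, at 7.85 and 8.02 with vehicle and 7.72 and 7.81 with AICAR. This was the lowest difference of all 52, -0.17 (95% confidence interval -0.37 to 0.03, adjusted p = 0.258). The array also holds 2 probe sets that list RPL27A, and 1 that lists RPLP2, together with other symbols. These were left out by the single-gene rule, so the dim readings are not all that the array holds on these genes.

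Over the 52 members, AICAR values both lay above the vehicle values in 10 and both below in 9, and the groups overlapped in 33. The share without overlap was 36.5%, and over all genes tested it was 56.6% (28.5% above and 28% below). Non-overlap was thus less frequent among the members than over all genes, by description only.

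The further probe sets of the same genes gave a less uniform picture. The 53 members had 112 single-gene probe sets, and 33 genes had more than 1. These probe sets fell into a bright and a dim class with no mean between 9.55 and 11.95 (log2). The 70 bright ones differed by -0.19 to 0.06, and 0 were called in a fit of 29953 probe sets tested separately, in which 7.34% were called. Of the 42 dim ones, 9 lay below the bound and 33 were tested. Among those, 2 rose and 3 fell, but the falling probe set of RPL7 passed the bound only through its vehicle values. The differences of the 33 ran from -0.56 to 1.20 with a median of -0.10. An unadjusted limma p under 0.05 was found for 12 (10 negative and 2 positive). The share of all probe sets at that threshold was not counted, so the 12 are a description. The annotation does not say which transcript form or region a dim probe set reads, and cross-hybridization at low signal was not tested.

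**Figure D3:**
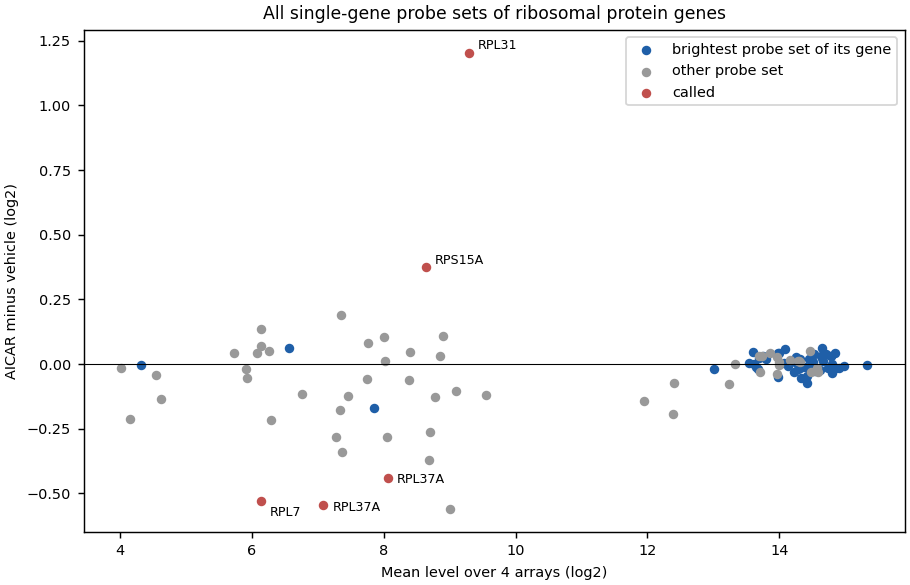
Each point is a probe set of a ribosomal protein gene, with its mean over 4 arrays (log2) on the horizontal and AICAR minus vehicle (log2) on the vertical axis; the Y-linked copy is left out. Bright probe sets lie within -0.19 to 0.06, and the 5 called ones (red), of RPL31, RPS15A, RPL37A and RPL7, all have means under log2 9.55.

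RPL31, a protein at the tunnel exit that is mutated in some families with Diamond-Blackfan anaemia, had the largest change. Its probe set 200962_at was at 8.73 and 8.63 on the vehicle arrays and at 9.89 and 9.88 on the AICAR arrays. The pairs were tight and far apart, and the probe set rose by 1.20 (log2, SE 0.0771, limma adjusted p = 0.00507 over the 29953 probe sets). The gene's brightest probe set, 200963_x_at, was at 14.23 and 14.26 with vehicle and at 14.25 and 14.29 with AICAR, with a difference of 0.03. A further one, 221593_s_at, went the other way, at 8.81 and 8.85 with vehicle and 8.47 and 8.67 with AICAR (difference -0.26, not called). The rise of 200962_at was 1.15 to 1.25 with any 1 array left out. Such fits leave 1 array in 1 group, so they cannot decide whether the call holds.

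RPS15A, a small subunit protein, had the other rising probe set. 235309_at was at 8.47 and 8.43 with vehicle and 8.83 and 8.81 with AICAR, a rise of 0.37 (SE 0.0731, adjusted p = 0.0364). Its bright probe set read 14.50, 14.51, 14.53 and 14.55 on the 4 arrays in the same order, and its remaining one differed by -0.11.

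Of RPL37A, a zinc-binding protein of the large subunit, both dim probe sets fell. 213459_at was at 7.45 and 7.26 with vehicle and 6.76 and 6.85 with AICAR, a fall of 0.55 on the log2 scale (adjusted p = 0.0276). 214041_x_at was at 8.26 and 8.31 with vehicle and 7.95 and 7.73 with AICAR (-0.44, adjusted p = 0.0474). The bright one read 14.86 and 14.88 with vehicle and 14.86 on both AICAR arrays. RPL7 had 2 bright probe sets with differences of 0.03 and 0.05, while 239493_at was at 6.48 and 6.31 with vehicle and 5.87 on both AICAR arrays (-0.53, adjusted p = 0.0252). Its AICAR values lay below the bound of 6.11, and it was tested only because the vehicle values raised its mean to 6.13, so this call is a description. RPS24, also among the genes whose probe sets lay over 0.5 apart, had a dim probe set at 9.36 and 9.19 with vehicle and 8.55 and 8.88 with AICAR. Its difference of -0.56 did not pass (adjusted p = 0.0539). With any 1 array left out, 235309_at of RPS15A differed by 0.35 to 0.40 and 239493_at of RPL7 by -0.62 to -0.44. For RPL37A the ranges were -0.64 to -0.45 (213459_at) and -0.55 to -0.33 (214041_x_at). Fits with 1 array in a group cannot decide whether these calls hold.

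**Figure D4:**
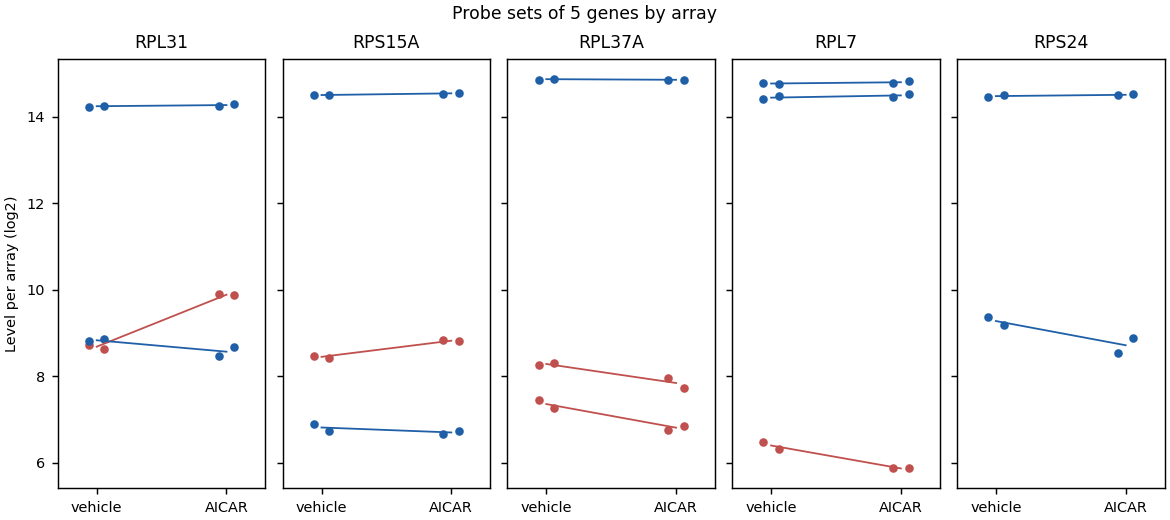
Points are the log2 level on each array (vertical axis) and lines join the group means, for every single-gene probe set of 5 genes; red marks probe sets called at an adjusted p under 0.05. The bright probe sets are level between vehicle and AICAR in all 5 genes, while 1 dim probe set of RPL31 and 1 of RPS15A rose and dim probe sets of RPL37A and RPL7 fell.

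Which probe set stands for a gene therefore decides the few calls. When the probe sets of each gene were averaged, RPL31 rose by 0.32 (log2, adjusted p = 0.0292) and RPL37A fell by 0.33 (0.0245), 2 of 51 members where 8.97% of all genes were called. Without probe sets whose names end in _x_at, which may bind messengers of other genes, 45 members could be tested. RPL31 then rose by 1.20 (adjusted p = 0.00234) and RPL7, through the same dim probe set that passed the bound by its vehicle values alone, was at -0.53 (0.0155). They were 2 of 45 where 10.3% of all genes were called. Of the 53 probe sets chosen for the members, RPL36A's included, 12 had such a name.

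Probe sets that list a ribosomal protein gene together with other symbols were not named. There were 64, of which 56 also list a small nucleolar RNA, the guide RNAs that many ribosomal protein genes carry in their introns. Of 60 tested, 0 rose and 4 fell (7.34% of all probe sets were called). The 47 bright ones differed by -0.18 to 0.14, with 0 called. All 4 that fell were below log2 11 and list a small nucleolar RNA, and their differences were -0.78 to -0.51.

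Genes related to the ribosomal proteins by sequence or function are given by list, each against the 9.82% called over all genes. The copies whose names end in L, expressed as relatives of core proteins in some tissues, had 1 called of 7 tested. RPL26L1, a near copy of RPL26, was at 10.78 and 10.80 with vehicle and 10.50 and 10.46 with AICAR, a fall of 0.31 on the log2 scale (SE 0.0668, adjusted p = 0.0394). RPL22L1 differed by -0.26 (adjusted p = 0.0809) and the p53-induced RPS27L by 0.24 (0.133). FAU, which encodes a small subunit protein as a ubiquitin-like fusion, was at 14.45 and 14.39 with vehicle and 14.37 and 14.31 with AICAR and did not pass (-0.08, adjusted p = 0.534).

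Of 74 mitochondrial ribosomal proteins, which build the separate ribosome of mitochondria, 2 rose and 0 fell, with a median of 0.0091 (log2) and a range of -0.22 to 0.40. They were MRPS16 (0.40, adjusted p = 0.0229, with a further probe set at -0.07) and MRPS33 (0.40, 0.0206). Their median mean level was 11.01, beside 14.29 for the tested cytosolic large subunit genes, so the lists are read at different places on the scale. No test compared them.

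Among 18 tested translation factors and other genes known for TOP messengers, 2 rose and 0 fell, with a median of 0.03. NAP1L1, a histone chaperone, was at 12.61 and 12.64 with vehicle and 13.02 and 13.06 with AICAR, a rise of 0.41 (SE 0.0675, adjusted p = 0.0197). EIF3F, an initiation factor subunit, was at 13.10 and 13.09 with vehicle and 13.45 and 13.49 with AICAR (0.37, adjusted p = 0.0235), while its dim probe set differed by -0.36. Both values with AICAR lay above both with vehicle in each gene. Over all tested genes with a TOP start in RefSeq that are no members, 105 of 2013 rose and 100 fell (10.2% called, median 0.0093). Without such a start 422 of 9006 rose and 491 fell (10.1%, median 0.0052).

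The small nucleolar RNA hosts, several of which are known for TOP starts, had 6 tested members, of which 1 rose and 3 fell. TAF1D fell by 0.62 on the log2 scale (8.56 and 8.34 with vehicle, 7.70 and 7.96 with AICAR; adjusted p = 0.0264). GAS5, a non-coding host, fell by 0.58 (7.08 and 7.14, then 6.58 and 6.47; adjusted p = 0.0116), and SNHG32 fell by 0.39 (adjusted p = 0.0260). The probe set of GAS5 had a mean of 6.82, near the bound of 6.11 for dim genes. Its start in RefSeq had no TOP start by the rule used here. EPB41L4A-AS1 rose by 0.30 (adjusted p = 0.0450) and a dimmer probe set of it was at -0.52, so its direction rests on the choice of probe set.

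Of 17 tested regulators of TOP messengers and S6 kinases, 2 rose and 2 fell. Both S6 kinase genes fell: RPS6KB1, at 12.41 and 12.43 with vehicle and 12.02 and 12.15 with AICAR (-0.34, adjusted p = 0.0440; each of its 3 probe sets was negative), and RPS6KB2, at 8.75 and 8.71 with vehicle and 8.37 and 8.30 with AICAR (-0.39, 0.0232). RPS6KA3, a kinase of the ERK pathway that also phosphorylates RPS6, rose by 0.33 (adjusted p = 0.0480) with its brightest probe set. A further one of similar level differed by 0.06, and their mean by 0.19 without passing (0.122). LARP1B rose by 0.48 (0.0376) with its brightest probe set, and the mean of its probe sets differed by -0.00028 (adjusted p = 0.998). LARP1 differed by -0.28 without passing (0.0639), and MTOR by 0.15 (0.255).

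Of 18 chaperones and importers of ribosomal proteins, 0 rose and 1 fell, the importin IPO9 (-0.40, adjusted p = 0.0214), whose 3 other probe sets differed by -0.07 to 0.07. Of 10 factors known from ribosomal protein promoters, MYC rose from 11.23 and 11.16 to 11.63 and 11.69 (0.46, adjusted p = 0.0176), and GABPB1, a subunit of the ETS factor GABP, fell from 9.95 on both arrays to 9.45 and 9.50 (-0.47, 0.0138). Of the cell type markers, ESR1 (-0.31, limma adjusted p = 0.0411) and COL1A1 (-0.63, 0.0209) were called. Both calls rest on the brightest probe set: averaged over probe sets, ESR1 differed by -0.04 (adjusted p = 0.773) and COL1A1 by -0.23 (0.0727).

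**Figure D5:**
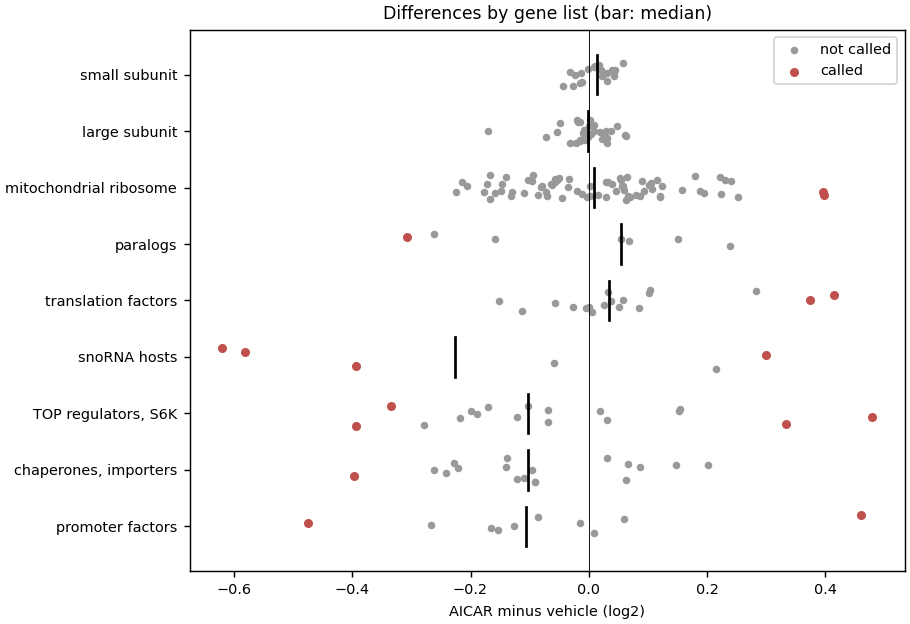
Points are genes, with AICAR minus vehicle (log2) on the horizontal axis, by list on the vertical axis (spread within a list only for visibility); red points were called and bars are list medians. The cytosolic subunits, drawn without the Y-linked copy, form the narrowest lists and have no called gene, while TAF1D at -0.62 and LARP1B at 0.48 are the outermost called points.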

How the data were processed

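Total RNA of 4 BT474 samples was hybridised to Affymetrix arrays, per the labels' protocols. The deposited values are log2 expression per probe set, normalized by the authors with Affymetrix Expression Console, per the submitters' processing notes; its version, its summarization and its background step: not given in the sources used here. Of 41097 probe sets with 1 symbol, 41043 got their current symbol from RefSeq (GRCh38.p14, names and promoter windows only). Per gene the probe set of highest mean was kept, and genes below the 30th percentile of means were left out. Differences were fitted with limma 3.58.1 (R 4.3.3; lmFit, eBayes, Benjamini-Hochberg over all genes, two-sided; called at an adjusted p under 0.05). On simulated data (13842 genes, 200 changed) the fit recovered 52.6% of changes of 0.5 and 97.7% of changes of 1 (log2), with 4.58% false calls. The simulated variances did not depend on level, so these rates do not describe the bright members.

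The members, lists and rules were chosen with earlier results of these data known. Genes named are called members, the 10 members with the highest and the 10 with the lowest difference, the 3 brightest and 3 dimmest, fixed members (such as RPS6 and RPL3), those whose probe sets lie over 0.5 apart, and per other list up to 4 called genes. ANXA2, KPNA2, EEF1A1, RPL22 and some uncalled list genes were named after their values were seen. The fit of single probe sets, the bright and dim classes and the comparison with other bright genes were chosen after seeing the data. The alternatives were other dim filters, quantile normalization, median centring, trend and robust variances, other choices of probe set, another threshold, the replicate block and leaving out each array.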

Additional observations from a re-analysis of the deposited data

How the results depend on the processing

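The count of called ribosomal protein genes was 0 higher and 0 lower in the main fit, without a dim filter and with one at the 50th percentile. It was the same after quantile normalization and after median centring. The count was also unchanged with a trend and robust variances, at an adjusted p under 0.1 and with the replicate number as a block. It was 1 higher and 1 lower with the mean of all probe sets and without _x_at probe sets, where RPL7 differed by -0.53 in place of 0.03, and 2 higher and 2 lower genes with all probe sets tested separately. Their median difference of 0.0035 (log2) was -0.0084 after median centring, -0.0134 with the mean of all probe sets and -0.0051 to 0.0135 with 1 array left out, so its sign is not settled. The labels do not say whether equal replicate numbers mark a pairing, and the check did not settle it: deviations of same-numbered arrays correlated at r = -0.0721 over all genes tested and 0.56 over the 52 members. Single dim members weigh heavily in the second value. RPLP2 had an SD of 0.41 over the vehicle arrays, beside a median of 0.0174 for the bright members. Of the 18 called genes named from other lists, 13 kept their call with the replicate block, 10 without a dim filter, 16 after quantile normalization, 16 after median centring, 10 with the mean of all probe sets, and 0 to 11 with 1 array left out. With the mean of all probe sets, EPB41L4A-AS1 was at -0.11 and LARP1B at -0.00028. Most members lie at the bright end of the scale, where the effect of compression was not measured.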

Other observations

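Probe sets that list a small nucleolar RNA gave a pattern that reaches beyond the ribosomal protein genes. Of 68 tested ones that list such an RNA and no ribosomal protein gene, 1 rose and 17 fell (limma adjusted p under 0.05), with a median difference of -0.23 (log2). Of all 29953 probe sets 7.34% were called, 815 higher and 1384 lower. Of the 42 among them with a mean under log2 11, 0 rose and 12 fell. Among those that list a ribosomal protein gene as well, 10 had a mean under log2 11, of which 0 rose and 4 fell, with a median of -0.35. The share called among all probe sets under log2 11 was not counted, so these dim counts have no like background. They rest on the fit of single probe sets, which was chosen after seeing the data. Several probe sets can read 1 host gene, and the counts are of probe sets, not genes. The annotation does not say whether a probe set reads the spliced host messenger, an intron or the small RNA itself.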
